A study of Mus musculus with 3 samples.

Results

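The genes described here are 49 genes that act in G2 and mitosis, chosen by symbol as a list of known function and not by their values, out of 29267 gene identifiers in the count tables of single mouse embryonic stem cells. All 49 were found and all 49 passed the filter on low counts, among 17119 genes tested. They are 7 cyclins, CDK1 and partners (Ccnb1, Ccnb2, Ccna2, Cdk1, Cks1b, Cks2, Cdc25c), 8 mitotic kinases and passenger complex genes (Plk1, Aurka, Aurkb, Nek2, Tpx2, Incenp, Birc5, Cdca8) and 11 checkpoint and kinetochore genes (Bub1, Bub1b, Bub3, Mad2l1, Ttk, Cenpa, Cenpe, Cenpf, Ndc80, Nuf2, Spc25). To these come 6 kinesins (Kif11, Kif20a, Kif20b, Kif23, Kif2c, Kif4), 4 genes that work with the anaphase-promoting complex or cyclosome, APC/C, as activator, enzyme or substrates (Cdc20, Ube2c, Pttg1, Cdca3), 11 spindle and cytokinesis genes (Nusap1, Prc1, Hmmr, Ckap2, Ckap2l, Anln, Ect2, Gtse1, Aspm, Racgap1, Tacc3) and 2 chromosome genes (Top2a, Mki67). Their levels, as means over libraries, ran from 11.3 CPM (counts scaled by library size and not by gene length) to 854 CPM, with a median of 121 CPM.

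Each of 3 plates held cells of 3 types, all of the Mll1fl/fl genotype with the Cre-ER TM transgene on C57BL/6J, from blastocyst-derived embryonic stem cells. They were cells under MLL1 inhibition (inhibited), Mll1-/- cells (deleted) and Mll1fl/fl control cells (control). Mll1, now named Kmt2a, encodes a histone H3 lysine 4 methyltransferase, and Cre-ER TM is a recombinase that tamoxifen activates. The labels name no inhibitor, dose, time or deleted exon, and none says whether the control or inhibited cells received tamoxifen. No label ties the plates to different cultures, so a p-value here reflects only plate-to-plate spread, possibly a technical one.

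After wells with under 1000 genes or at least 20% mitochondrial transcripts were left out, 4413 of 4610 wells remained, 1590 inhibited, 1310 deleted and 1513 control. Counts of unique molecular identifiers (UMIs, 1 per captured RNA molecule) were summed over the wells of each type on each plate, giving 9 libraries of 25914860 to 43773924 UMIs. Kmt2a stood at 40.6, 43.4 and 46.7 CPM on plates 1, 2 and 3 in inhibited cells, 62.1, 49.9 and 39.2 CPM in deleted cells, against 50.2, 50.2 and 54.7 CPM in control cells. A count outside the deleted exons does not check a deletion, so the deleted cells are named by their label alone. The 8 embryonic stem cell markers summed to 4497 to 5356 CPM in inhibited cells, 5088 to 6522 CPM in deleted cells, against 6169 to 6326 CPM in control cells. The 7 trophectoderm markers summed to 551 to 887 CPM in inhibited cells, 963 to 1598 CPM in deleted cells, against 733 to 878 CPM in control cells. Most of these sums came from the keratins Krt18 and Krt8, at 732 and 205 CPM over all kept wells, while Elf5 averaged under 1 CPM. Markers of primitive endoderm (8 genes) summed to at most 131 CPM in any library, feeder fibroblasts (8 genes) to at most 137 CPM, of which 6 genes averaged under 1 CPM, and blood and endothelium (5 genes) to at most 9.70 CPM. Of 3260 distinct cell barcodes in kept wells, 1040 occurred on more than 1 plate and 113 on all plates.

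Entry into mitosis is driven by cyclin B bound to the kinase CDK1, which phosphorylates proteins that condense chromosomes and build the spindle. Kinetochores attach chromosomes to microtubules, and the spindle checkpoint holds back the APC/C, a ubiquitin ligase, until every kinetochore is attached. The APC/C with its activator CDC20 then marks cyclin B and securin for destruction. Transcripts of many of these genes accumulate together late in the cycle, and mouse embryonic stem cells are known for rapid division with a short G1. In mammalian cells, mostly human, this timing is attributed to the MuvB complex, whose subunit LIN54 binds an element called the cell cycle genes homology region (CHR), and to NF-Y, which binds CCAAT boxes.

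Promoter sequences were searched for these elements, and they show what the genes share beyond the list. RefSeq windows on build GRCm38.p6, 250 bases before to 50 after each start, were given for 43 of the 49 genes, 47 windows in all. No window was given for Ccna2, Cdc25c, Aurkb, Tpx2, Incenp and Kif20a. The CHR letters TTTGAA occurred on either strand in 34 of 47 windows (72.3%), against 17.9% of all 32851 windows of that length. The variant TTCGAA occurred in 3 windows (6.38%), against 1.56% of all windows. CCAAT on either strand occurred in 37 windows (78.7%), against 37.4% of all. At least 2 matches occurred in 27 of the 47 windows, against 11.7% of all windows. A CHR form and CCAAT occurred together in 31 windows (66.0%), against 7.52% of all. No motif contains another, although neighbouring matches can share bases, as CCAAT and its complement do in Ube2c, where they count as 2 matches, and a match is a description of the sequence and not a bound site.

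The 8 promoters printed next are those of Cks1b, the 1 gene of the list that passed the test, of 5 genes from several roles that hold the motifs, and of Birc5 and Mad2l1, which rank next in that comparison and whose windows hold none of the 3 motifs. Each is 158 to 200 bases, 5′ to 3′ along the gene's strand, and ends before the first base that RefSeq or the GENCODE M21 annotation counts as transcribed in the gene. Capitals mark TTTGAA, its variant TTCGAA, the CCAAT box, and the reverse complements TTCAAA and, of the box, ATTGG. The stretches are chr3:89418384-89418541 (minus strand) for Cks1b, chr10:69352939-69353138 (minus) for Cdk1, chr9:70421555-70421754 (minus) for Ccnb2, chr4:118437353-118437552 (minus) for Cdc20, chr19:37376182-37376381 (plus) for Kif11, chr11:99024190-99024389 (minus) for Top2a, chr11:117849037-117849236 (plus) for Birc5 and chr6:66535021-66535220 (plus) for Mad2l1.
Cks1b: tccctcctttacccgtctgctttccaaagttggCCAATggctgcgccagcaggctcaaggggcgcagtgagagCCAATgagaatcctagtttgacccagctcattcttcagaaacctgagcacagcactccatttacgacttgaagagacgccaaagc
Cdk1: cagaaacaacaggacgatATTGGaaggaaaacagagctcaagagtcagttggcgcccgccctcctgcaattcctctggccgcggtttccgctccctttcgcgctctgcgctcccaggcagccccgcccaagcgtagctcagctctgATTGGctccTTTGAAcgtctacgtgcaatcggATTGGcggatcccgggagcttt
Ccnb2: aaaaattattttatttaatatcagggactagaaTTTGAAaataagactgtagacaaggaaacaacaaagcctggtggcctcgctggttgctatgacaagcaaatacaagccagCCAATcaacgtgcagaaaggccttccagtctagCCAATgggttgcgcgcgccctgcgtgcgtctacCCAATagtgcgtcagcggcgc
Cdc20: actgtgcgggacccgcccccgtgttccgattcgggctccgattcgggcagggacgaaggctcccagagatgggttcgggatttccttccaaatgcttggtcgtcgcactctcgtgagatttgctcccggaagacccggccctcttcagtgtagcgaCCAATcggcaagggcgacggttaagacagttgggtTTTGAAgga
Kif11: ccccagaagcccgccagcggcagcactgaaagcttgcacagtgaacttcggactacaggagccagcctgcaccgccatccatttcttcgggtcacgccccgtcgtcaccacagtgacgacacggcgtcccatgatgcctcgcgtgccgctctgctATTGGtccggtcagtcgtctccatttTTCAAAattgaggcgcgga
Top2a: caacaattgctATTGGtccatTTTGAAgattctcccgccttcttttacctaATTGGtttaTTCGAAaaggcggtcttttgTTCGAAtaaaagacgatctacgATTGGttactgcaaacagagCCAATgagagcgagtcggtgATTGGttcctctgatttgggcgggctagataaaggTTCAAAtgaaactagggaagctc
Birc5: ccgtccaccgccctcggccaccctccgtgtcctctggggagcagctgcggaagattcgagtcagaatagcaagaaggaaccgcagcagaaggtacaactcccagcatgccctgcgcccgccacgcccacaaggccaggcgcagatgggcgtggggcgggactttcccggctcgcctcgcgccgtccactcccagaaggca
Mad2l1: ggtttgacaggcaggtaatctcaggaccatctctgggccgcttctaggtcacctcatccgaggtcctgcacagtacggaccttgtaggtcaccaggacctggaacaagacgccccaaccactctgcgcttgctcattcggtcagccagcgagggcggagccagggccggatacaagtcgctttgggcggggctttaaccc

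In Cks1b the TTTGAA matches begin 77 and 17 bases before the RefSeq start, inside a stretch that GENCODE counts as transcribed and that is not shown. In Cdc20 the match begins 18 bases before the start with CCAAT 53 bases before it, and in Kif11 these distances are 19 and 45 bases. Cdk1 has CCAAT boxes 208, 80 and 48 bases before its start, with TTTGAA 71 bases and, past the shown stretch, 15 bases before it. Top2a holds 6 CCAAT boxes and 4 CHR forms in its window. Over all 47 windows, 34 of 48 CHR matches began within 50 bases of the start on either side, and 69 of 90 CCAAT matches lay in the 150 bases before it. The share of matches at these positions in the windows of all genes was not taken. Neighbouring CCAAT boxes were 31 to 34 bases apart in 11 of 53 pairs (20.8%), against 7.46% of 5418 pairs in all windows, a range of spacings chosen after the positions had been seen. Bub3, Ect2, Prc1 and Gtse1 have overlapping windows, and a site or pair that lies in both of them is counted in each. Besides Birc5 and Mad2l1, no match was found in the windows of Nuf2, Nusap1, Pttg1 and Tacc3. The windows of Mad2l1 and Pttg1 do not contain the GENCODE start of the gene, at bases 66535390 and 43426251. The sequence around that start was not searched in full, so a motif there is not excluded.

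**Figure D1:**
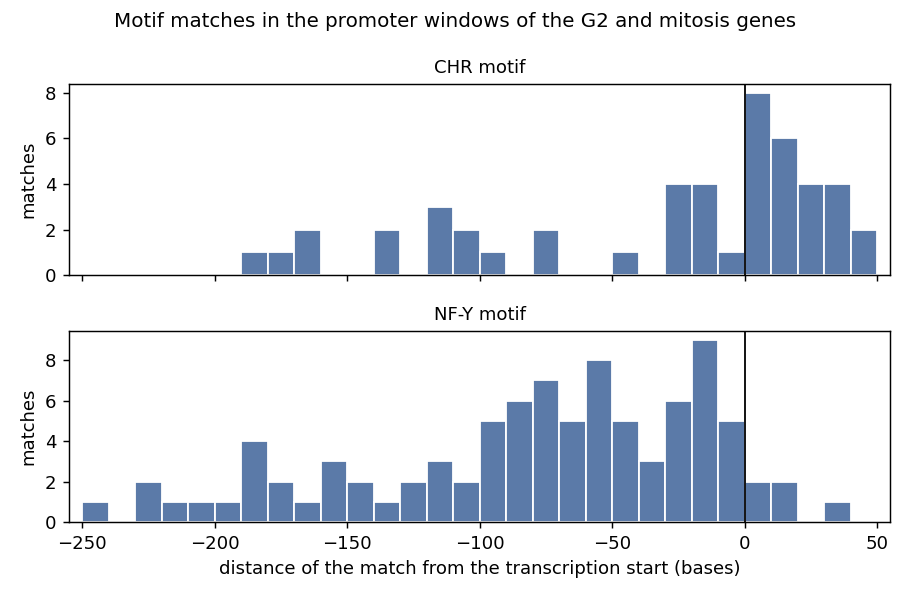
Positions of motif matches in the 47 promoter windows of the G2 and mitosis genes, as the number of matches per 10 bases (vertical) against the distance in bases from the transcription start (horizontal, negative before the start), for the CHR forms above and the NF-Y motif (CCAAT box) below. Of 48 CHR matches, 34 lie within 50 bases of the start, and 69 of 90 CCAAT matches lie in the 150 bases before it. A site in overlapping windows of the same gene is counted in each.

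Together the 49 genes gave 0.873, 0.925 and 0.873% of UMIs on plates 1, 2 and 3 in inhibited cells, 0.788, 0.918 and 0.801% in deleted cells and 0.845, 0.917 and 0.893% in control cells. The 3 types overlapped, and in each of them plate 2 was the highest. The mean share was 0.890 ± 0.0302% in inhibited cells, 0.836 ± 0.0721% in deleted cells and 0.885 ± 0.0364% in control cells (SD, n = 3 plates each). Inhibited cells lay above deleted cells on 3 of 3 plates, by a mean of 0.09 on the log2 scale, with 0.15 on plate 1, 0.01 on plate 2 and 0.12 on plate 3. Without the deepest 5% of wells this held on 2 of 3 plates, with a mean of 0.03, and with wells thinned to equal depth or as the median over wells it held on 3 of 3, with means of 0.08 and 0.07. Deleted cells differed from control cells by a mean of -0.09, with a value above 0 on 1 of 3 plates. That mean was -0.02 without the deepest 5% of wells (1 plate above 0), -0.05 with wells thinned to equal depth and -0.09 as the median over wells, with 0 plates above 0 in the last 2. In such sums, fewer cells in G2 and mitosis and less of this RNA per cell cannot be told apart.

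The spread over single wells was wider than that between types. The well at the 90th percentile had 2.47 to 2.83 times the share of the well at the 10th percentile in inhibited cells, 2.69 to 2.77 times in deleted cells and 2.37 to 2.56 times in control cells. With wells thinned to 5869 UMIs each (3971 of 4413 wells reached that depth), the variance of the genes' summed UMIs over wells was 6.61 to 9.53 times its mean in inhibited cells, 6.91 to 8.64 times in deleted cells and 6.34 to 7.22 times in control cells. Taken singly, the genes were not set apart: the median variance over mean was 2.38 for the 47 of them with at least 0.1 UMI per thinned well, and 2.23 for all 6096 such genes. No kept well lacked UMIs of these genes, and they gave 0.870% of the UMIs of kept wells. All 15 wells with control RNA also held UMIs of these genes, 68 of 20306 UMIs (0.335%, 95% exact binomial interval 0.260 to 0.424%). In the 15 wells without cells, of which 10 held such UMIs, these genes gave 15 of 2719 UMIs (0.552%, 0.309 to 0.908%). The intervals cover counting error only.

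**Figure D2:**
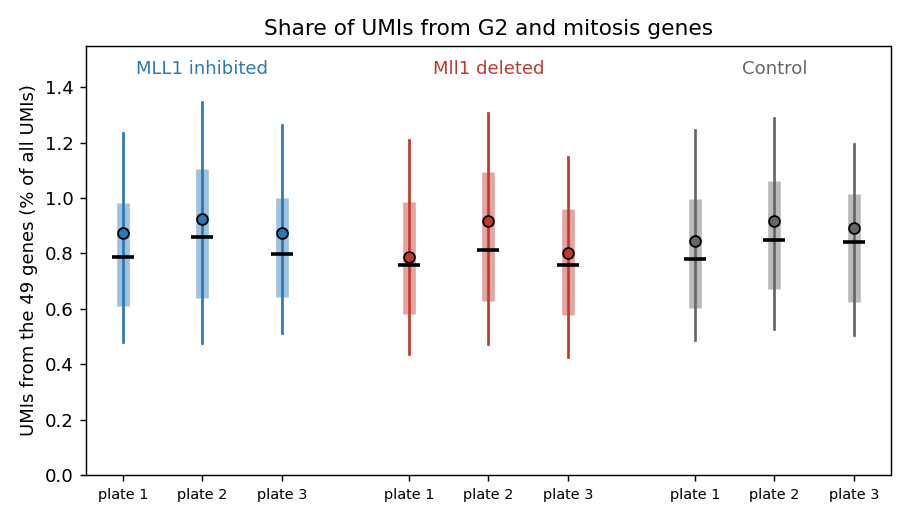
Percent of UMIs from the 49 G2 and mitosis genes (vertical) in each type and plate (horizontal). Circles are the summed libraries, black dashes the median over wells, thick bars the 25th to 75th and thin lines the 10th to 90th percentile over wells. Libraries range from 0.788% in deleted cells of plate 1 to 0.925% in inhibited cells of plate 2, and the wells of all 3 types overlap.

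Inhibited and deleted cells were compared first, since this contrast gave the 1 call of the list. Cks1b (ENSMUSG00000028044, chr3:89415472-89418383 in GENCODE M21 on GRCm38) encodes a small subunit that binds CDK1 and CDK2 and, with SKP2, helps degrade the inhibitor p27. It stood at 883, 1012 and 963 CPM in inhibited cells, 689, 820.0 and 794 CPM in deleted cells, against 789, 863 and 874 CPM in control cells. Every inhibited library lay above every other one, and each deleted library lay below the control library of its plate, although deleted and control values overlapped across plates. Cks1b was higher in inhibited than in deleted cells by 0.31 ± 0.05 on the log2 scale (SE), with an adjusted p of 0.0443 in edgeR's quasi-likelihood test with Benjamini-Hochberg adjustment over 17119 genes. It was the only 1 of the 49 called (2.04%), beside 53 of all genes, which is 0.31%. The call was lost without plate 1, 2 or 3 (adjusted p 0.420, 0.445 and 0.0550), without the plate term (0.440), without the deepest 5% of wells (0.0897) and with wells of at least 2000 genes (0.0518), while the log2 difference kept to 0.26 to 0.33. Its transcript is 94.8% identical over 693 bases to Cks1brt, whose UMIs came to 1.58% of its own.

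The genes next in rank in this comparison did not pass. Birc5, survivin of the chromosomal passenger complex, stood at 556, 683 and 549 CPM in inhibited cells, 455, 586 and 479 CPM in deleted cells, against 532, 629.6 and 543 CPM in control cells. Plate 2 was high in every type, and the inhibited library was the highest of each plate. Its log2 difference between inhibited and deleted cells was 0.24 ± 0.06 (adjusted p = 0.119, edgeR). Mad2l1, the checkpoint protein MAD2 that sequesters CDC20, stood at 117, 124 and 136 CPM in inhibited cells, 76.6, 105 and 116 CPM in deleted cells, against 97.1, 123 and 118 CPM in control cells. Inhibited and deleted libraries of Mad2l1 did not overlap, and the deleted library of plate 1 was the lowest of all. Its difference was 0.36 ± 0.10 (adjusted p = 0.151, edgeR). DESeq2 called 4 of the 49, Cks1b, Birc5, Mad2l1 and Cdca3, beside 3.05% of the genes it adjusted.

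Of the 49 genes, 39 (79.6%) had a log2 difference above 0 between inhibited and deleted cells, against 49.6% of all genes, with a median of 0.11 against -0.003 for all genes. The unadjusted p was under 0.05 for 10 genes above 0, which is 20.4%, against 6.98% of all genes. It was under 0.05 for 0 of the 49 below 0, against 6.68% of all genes. The 49 genes varied together over wells, so such counts, here and in the other comparisons, are not 49 separate observations. The genes they are set against were not matched to them by level. Libraries did not overlap for 6 genes that were higher in inhibited cells (12.2%, against 5.39% of all genes), namely Cks1b, Cks2, Tpx2, Mad2l1, Spc25 and Ect2, and for 2 that were lower (4.08%, against 6.38%), Kif23 and Anln. The median difference was 0.07 with thinned wells and 0.05 without the deepest 5% of wells. Trophectoderm markers moved with this contrast: Krt18 stood at 405, 695 and 606 CPM in inhibited cells and 696, 1171 and 1214 CPM in deleted cells (-0.85 ± 0.11, adjusted p = 0.0185, edgeR), and Krt8 also passed with -0.89 ± 0.14 (adjusted p = 0.0318). Of the 6 trophectoderm markers tested, 5 were below 0 in this comparison and 6 were above 0 between deleted and control cells. Their part in the differences of the 49 genes was not tested.

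**Figure D3:**
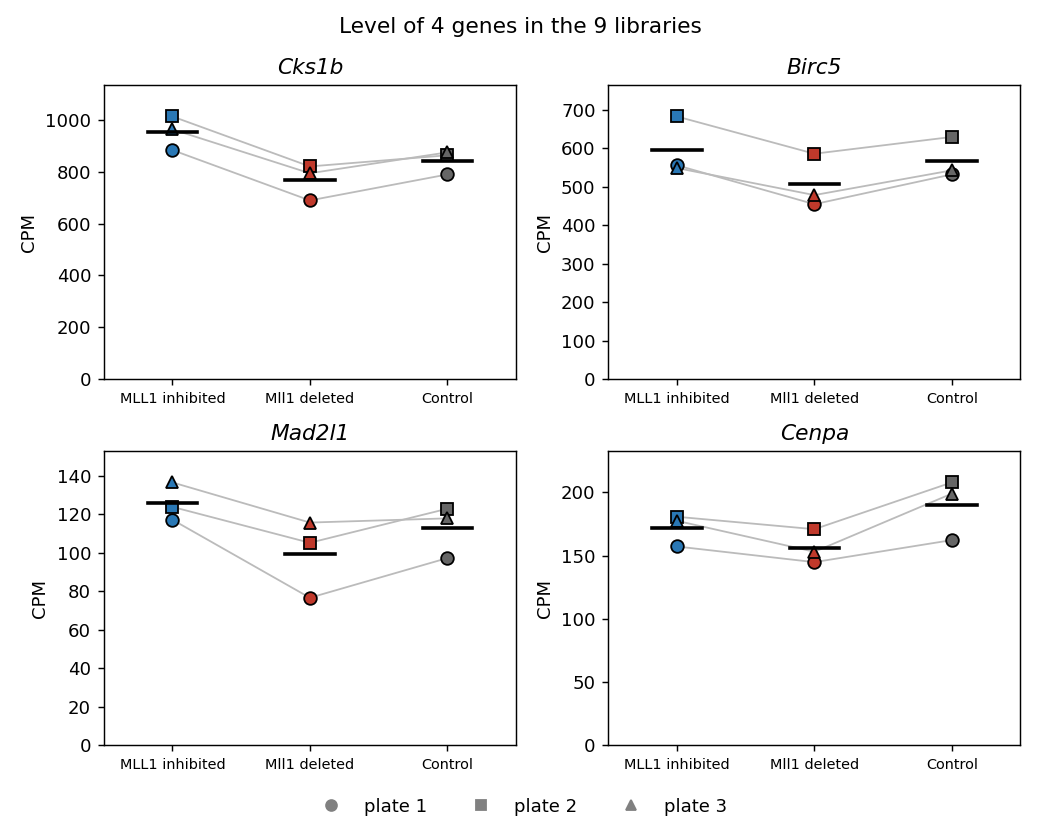
Level in CPM (vertical, from 0) of Cks1b, Birc5, Mad2l1 and Cenpa in inhibited, deleted and control cells (horizontal), with 1 symbol per plate, grey lines joining the libraries of a plate and black bars at the mean of 3 plates. For Cks1b the inhibited libraries (883 to 1012 CPM) lie above all others, and for Cenpa the deleted library is the lowest of each plate.

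Between deleted and control cells, 0 of the 49 genes passed, beside 6 of all genes, which is 0.035% (edgeR), and DESeq2 also called 0 of them, beside 1.58% of the genes it adjusted. In edgeR, 13 of the 49 (26.5%) had a log2 difference above 0, against 50% of all genes, and the median was -0.08 against 0.00 for all genes. The unadjusted p was under 0.05 for 8 genes below 0 (16.3%, against 5.22% of all genes) and for 0 above 0 (against 5.11%). The 8 were Cenpa, Birc5, Ect2, Cks1b, Cks2, Spc25, Top2a and Cenpf. Libraries did not overlap for 5 genes that were lower in deleted cells (10.2%, against 5.52% of all genes), namely Cks2, Tpx2, Spc25, Ect2 and Aspm, and for 1 that was higher (2.04%, against 5.44%), Gtse1. Cenpa, the histone H3 variant of centromeres, had the smallest p of the list: it stood at 145, 171 and 153 CPM in deleted cells, against 162, 208 and 199 CPM in control cells. Deleted cells were the lower on every plate, with a difference of -0.28 ± 0.07 (adjusted p = 0.247, edgeR), and the groups overlapped across plates. Ect2, the RhoA exchange factor of the cleavage furrow, stood at 136, 114 and 127 CPM in deleted cells, against 149, 143 and 148 CPM in control cells, with no overlap. Its difference was -0.23 ± 0.07 (adjusted p = 0.331, edgeR).

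Between inhibited and control cells, 0 of the 49 genes passed, beside 1 of all genes, which is 0.00584% (edgeR), and DESeq2 called 0 of them, beside 1.27% of the genes it adjusted. Of the 49, 29 (59.2%) were above 0 against 49.9% of all genes, with a median of 0.03. The unadjusted p was under 0.05 for 2 genes above 0, Cks1b and Bub3 (4.08%, against 4.77% of all genes), and for 1 below 0, Kif23 (2.04%, against 4.23%), shares near those of all genes. Libraries did not overlap for 4 genes that were higher in inhibited cells (8.16%, against 5.02%), namely Cks1b, Bub3, Kif11 and Ckap2, and for 1 that was lower (2.04%, against 6.23%), Kif23. Cks1b differed by 0.18 ± 0.05 (adjusted p = 0.365, edgeR). Bub3, which recruits checkpoint kinases to kinetochores, stood at 329, 387 and 306 CPM in inhibited cells, 203, 315 and 313 CPM in deleted cells, against 235, 294 and 292 CPM in control cells. Its inhibited and control libraries did not overlap, with a difference of 0.33 ± 0.11 (adjusted p = 0.426, edgeR). The 3 comparisons share libraries and are not independent of each other.

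**Figure D4:**
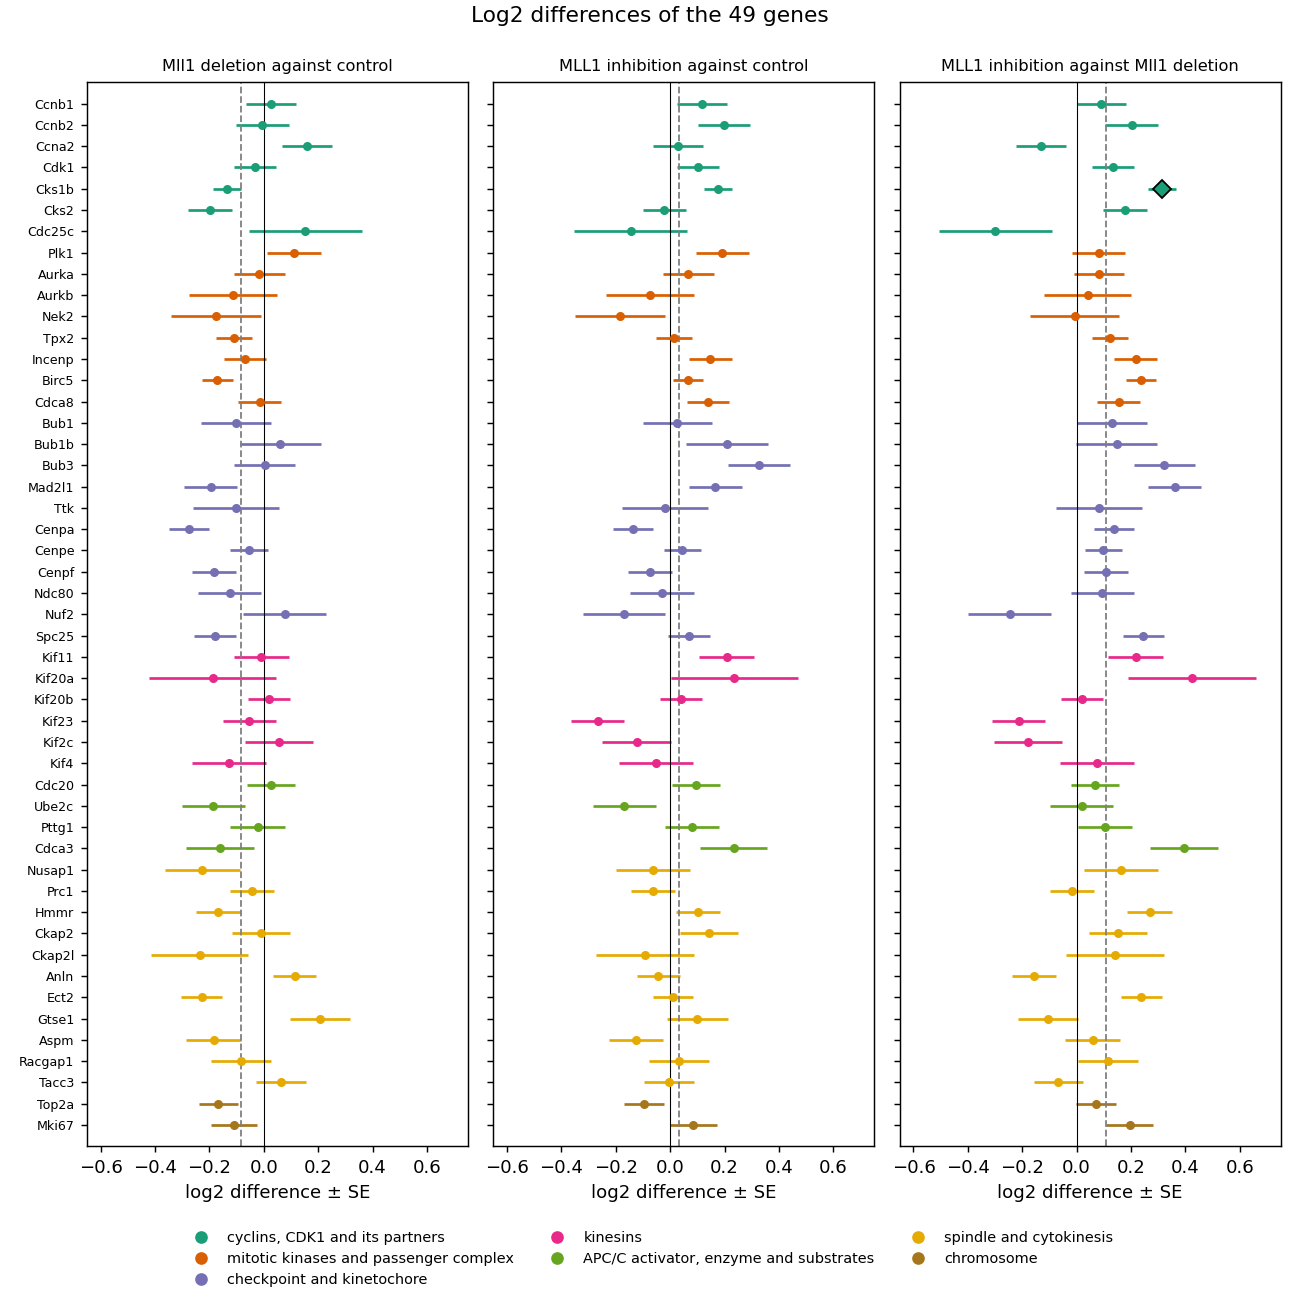
Log2 difference with its standard error (horizontal) of each of the 49 genes (vertical, coloured by role) in 3 comparisons, from 1 edgeR fit over 9 libraries. The dashed line is the median of the 49 (-0.08, 0.03 and 0.11 from left to right), and the diamond marks Cks1b, the 1 gene that passed the threshold.

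By role, the 7 genes of the cyclin and CDK1 group did not all share a direction in any comparison. Summed over the group, their share of UMIs was higher in inhibited than in deleted or control cells on each plate. Cks1b was the largest part of that sum. Ccnb1, cyclin B1, stood at 203, 237 and 231 CPM in inhibited cells, 162, 262 and 216 CPM in deleted cells, against 174, 223 and 225 CPM in control cells. Cdk1, the kinase it activates, stood at 217, 226 and 269 CPM in inhibited cells, 204, 228 and 215 CPM in deleted cells, against 202, 227 and 234 CPM in control cells. Plate 1 was the lowest plate for Ccnb1 in every type, and the 3 types overlapped for both genes. The 7 genes of the group had medians of 0.14 between inhibited and deleted cells, -0.01 between deleted and control cells and 0.10 between inhibited and control cells. Between inhibited and deleted cells 5 of the 7 were above 0, and the others were Ccna2, cyclin A2, and Cdc25c, a phosphatase that activates CDK1.

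UMIs were also counted on pseudogenes that match the transcripts of Ccnb1 and Cks2. Ccnb1-ps, 99.2% identical over 1287 bases, and Gm12856 together held 16.8 ± 1.75% as many UMIs as Ccnb1 in inhibited cells, 15.2 ± 0.884% in deleted cells and 16.3 ± 1.61% in control cells (SD, n = 3 plates each). Gm15452, with 240 bases at 100% identity to Cks2, and Gm12891 together held 46.1 ± 3.41% as many UMIs as Cks2 in inhibited cells, 47.1 ± 4.41% in deleted cells and 48.1 ± 3.95% in control cells. The ratios overlapped between the 3 types for both genes. The sources used here do not give how a read matching several genes was assigned, so the levels of Ccnb1 and Cks2 are uncertain.

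Among mitotic kinases and passenger genes, all 8 had log2 differences of at most 0.24 in size in every comparison. Plk1, a kinase that triggers mitotic entry, stood at 77.9, 95.3 and 64.4 CPM in inhibited cells, 67.8, 92.7 and 64.2 CPM in deleted cells, against 66.6, 76.5 and 62.9 CPM in control cells. Aurka, the kinase of spindle poles, stood at 89.2, 135 and 92.1 CPM in inhibited cells, 88.1, 126 and 84.4 CPM in deleted cells, against 90.4, 112 and 94.9 CPM in control cells. Both genes were highest on plate 2 in every type, and the range over plates within each type exceeded the differences between type means. Cdca8, borealin of the passenger complex, stood at 469, 498 and 413 CPM in inhibited cells, 371, 441 and 428 CPM in deleted cells, against 417, 419.7 and 415 CPM in control cells. The control libraries of Cdca8 were close together and lay inside the range of both other types.

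Of the 11 checkpoint and kinetochore genes, 10 were above 0 between inhibited and deleted cells (median 0.13), and 8 were below 0 between deleted and control cells (median -0.10). The exception in the first comparison was Nuf2, a subunit of the microtubule-binding NDC80 complex, at -0.25. Cenpf, a large protein of the outer kinetochore, stood at 407, 412 and 438 CPM in inhibited cells, 395, 435 and 340.0 CPM in deleted cells, against 426, 473 and 428 CPM in control cells. Deleted cells were below control cells on each plate, with a difference of -0.18 ± 0.08 (adjusted p = 0.474, edgeR), and the groups overlapped.

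The kinesins had medians of 0.05 between inhibited and deleted cells, -0.03 between deleted and control cells and -0.01 between inhibited and control cells. Kif11, the motor that separates spindle poles, stood at 138, 124 and 136 CPM in inhibited cells, 116, 129.8 and 98.0 CPM in deleted cells, against 115, 120.0 and 109.8 CPM in control cells. Kif20b stood at 336, 354 and 359.8 CPM in inhibited cells, 342, 394 and 306 CPM in deleted cells, against 339, 371 and 315 CPM in control cells, and its types overlapped. Kif23, a motor of the central spindle needed for cytokinesis, stood at 66.3, 66.4 and 57.9 CPM in inhibited cells, 80.8, 72.5 and 67.7 CPM in deleted cells, against 82.2, 70.7 and 76.2 CPM in control cells. Its inhibited libraries lay below all others, with differences of -0.27 ± 0.10 from control (adjusted p = 0.451) and -0.21 ± 0.10 from deleted cells (adjusted p = 0.374, edgeR). Kif4 overlaps Pdzd11 and Kif20a overlaps Cdc23 on the opposite strand, and the sources used here do not give whether counting used strand, so both are uncertain, as are Ccna2 (Exosc9) and Nusap1 (Oip5).

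All 4 genes of the APC/C activator, enzyme and substrate group were above 0 between inhibited and deleted cells, by 0.02 to 0.39, with a lowest adjusted p of 0.199 for Cdca3 (edgeR). Cdc20, the activator, stood at 164, 197 and 186 CPM in inhibited cells, 140.1, 199 and 188 CPM in deleted cells, against 142, 172 and 201 CPM in control cells. Ube2c, the enzyme that passes ubiquitin to APC/C substrates, stood at 214, 219 and 176 CPM in inhibited cells, 173, 248 and 185 CPM in deleted cells, against 202, 235 and 248 CPM in control cells. Pttg1, securin, stood at 214, 209.5 and 186 CPM in inhibited cells, 176, 185 and 208 CPM in deleted cells, against 169, 215 and 195 CPM in control cells. For all 3 genes the types overlapped, and the order of types differed from plate to plate. Of 18 known APC/C substrates, as identified in human or yeast work, 15 were above 0 in that comparison (median 0.10), and all 18 are among the 49.

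The 11 spindle and cytokinesis genes had medians of 0.12 between inhibited and deleted cells, -0.08 between deleted and control cells and -0.004 between inhibited and control cells. Hmmr, a spindle protein also known as a hyaluronan receptor, stood at 668, 663 and 462 CPM in inhibited cells, 463, 605 and 418 CPM in deleted cells, against 543, 638 and 481 CPM in control cells. Its difference between inhibited and deleted cells was 0.27 ± 0.08 (adjusted p = 0.190, edgeR) and was above 0 on 3 of 3 plates. Prc1, which bundles central spindle microtubules, stood at 285, 257 and 239.5 CPM in inhibited cells, 274, 257 and 259 CPM in deleted cells, against 268, 252 and 295 CPM in control cells, with overlap of all types. Of the chromosome genes, Top2a, the DNA topoisomerase that untangles sister chromatids, stood at 362, 389 and 340.4 CPM in inhibited cells, 369.8, 379 and 294 CPM in deleted cells, against 389, 397 and 378 CPM in control cells. Mki67, which coats mitotic chromosomes, stood at 226, 257 and 232 CPM in inhibited cells, 233, 220.0 and 176 CPM in deleted cells, against 239.6, 229 and 207 CPM in control cells. For both, the deleted library of plate 3 was the lowest of the 9 and the types overlapped.

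Other cell cycle genes were set beside the list. Of 74 other mitotic genes tested, 47 were above 0 between inhibited and deleted cells (median 0.07), with an unadjusted p under 0.05 for 8 above and 2 below 0. In the same list 30 were above 0 between deleted and control cells (median -0.04) and 44 between inhibited and control cells (median 0.07). The lowest adjusted p in these comparisons was 0.113, 0.290 and 0.358 (edgeR). The smallest p belonged to Psrc1 (0.33 ± 0.08) and Lin37 (0.53 ± 0.13), to Fbxo5 (-0.38 ± 0.11) and Knl1 (-0.33 ± 0.10), and to Dsn1 (0.56 ± 0.15) and Zwint (0.39 ± 0.11). Of 31 S phase genes, 26 were above 0 between inhibited and deleted cells (median 0.10) with 1 called, Gins2, a subunit of the replicative helicase. It stood at 144, 187 and 116 CPM in inhibited cells, 74.2, 113 and 87.9 CPM in deleted cells, against 95.2, 136 and 103 CPM in control cells, with a difference of 0.70 ± 0.11 between inhibited and deleted cells (adjusted p = 0.0309, edgeR). Inhibited and deleted libraries of Gins2 did not overlap. In the other comparisons 15 S phase genes were above 0 between deleted and control cells, with Slbp (-0.33 ± 0.10) and Gins2 (-0.28 ± 0.10) first, and 22 between inhibited and control cells, with Gins2 (0.41 ± 0.10) and Rrm2 (0.23 ± 0.07) first.

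Of 15 APC/C subunits, 8 were above 0 between inhibited and deleted cells, 10 between deleted and control cells and 11 between inhibited and control cells, with a lowest adjusted p of 0.338, 0.388 and 0.355 (edgeR). Those with the smallest p were Anapc16 (0.24 ± 0.10) and Anapc5 (0.15 ± 0.09), then Anapc4 (0.43 ± 0.16) and Cdc16 (0.20 ± 0.09), then Cdc16 (0.36 ± 0.09) and Anapc13 (0.13 ± 0.06). The list of 20 G1 genes held cyclins and CDK inhibitors, but also others such as the kinase gene Cdk6 and Rbl1. Of the 20 genes, 12, 10 and 16 were above 0 in the same order of comparisons. Their lowest adjusted p was 0.169, 0.441 and 0.365 (edgeR). Their leading genes were Cdk6 (0.61 ± 0.17) and Rbl1 (0.74 ± 0.30), then Cdkn2d (0.34 ± 0.14) and Ccng2 (0.74 ± 0.37), then Cdkn2d (0.51 ± 0.14) and Cdk6 (0.60 ± 0.17).

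Over single wells the 49 genes moved together within every library. The mean Spearman correlation of CPM over their 1176 pairs was 0.138, with 0.123 to 0.176 over the 9 libraries. The median pair had 0.134, beside 0.0731 for the median pair among 5559 genes, averaged over libraries. All 1176 pairs were above 0 on average and 1098 were above 0 in all 9 libraries. The share of all gene pairs above 0 was not taken, here or in thinned wells, and the median of all pairs is itself above 0. These counts therefore do not set the 49 genes apart. Since wells differ in depth, which all genes share, the correlation was also taken in thinned wells. There the mean over the pairs of the 49 genes was 0.0472, and 1107 of these pairs were above 0. For all genes the median pair, and not the mean, was taken in thinned wells, at 0.00225. Without thinning the mean was 0.129 in inhibited cells, 0.146 in deleted cells and 0.138 in control cells, with overlapping ranges. The highest value, 0.176, was that of deleted cells of plate 2.

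The genes most tied to the other 48 over wells were Cenpf (0.418), Prc1 (0.406), Ube2c (0.396), Hmmr (0.378) and Nusap1 (0.371), each as the mean correlation over 9 libraries with the summed CPM of the others. In thinned wells the order changed: Cenpf (0.374), Hmmr (0.339), Prc1 (0.316), Ube2c (0.310) and Top2a (0.304) came first, and Nusap1 had 0.240. Without thinning, 13 of the 49 stood above 0.3, among them Top2a, Aurka, Cdk1, Plk1 and Ccnb1, and the median was 0.236. At the low end stood Pttg1 (0.074), Gtse1 (0.106) and Kif20a (0.128), and Cks1b was also low at 0.169. Pttg1 averaged 195 CPM over the 9 libraries and Kif20a 11.3 CPM, so only the second of these was sparsely counted. The closest pair was Cenpf with Prc1 at 0.304, then Ube2c with Prc1 at 0.296 and Cenpf with Hmmr at 0.290. By role group, genes of the APC/C activator, enzyme and substrate group averaged 0.108 with each other and 0.133 with spindle and cytokinesis genes. The latter averaged 0.150 among themselves, and the 1 pair of chromosome genes, Top2a and Mki67, had 0.177. In thinned wells the averages within groups ran from 0.030 for the kinesins to 0.108 for the chromosome pair. The APC/C group had 0.039 there and spindle and cytokinesis genes had 0.051. In unthinned wells, members whose window holds a CHR form and CCAAT had a median correlation with the others of 0.245 (28 genes). Those with a window that lacks 1 or both had 0.182 (15 genes), with ranges of 0.153 to 0.418 and 0.074 to 0.371 that overlap.

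**Figure D5:**
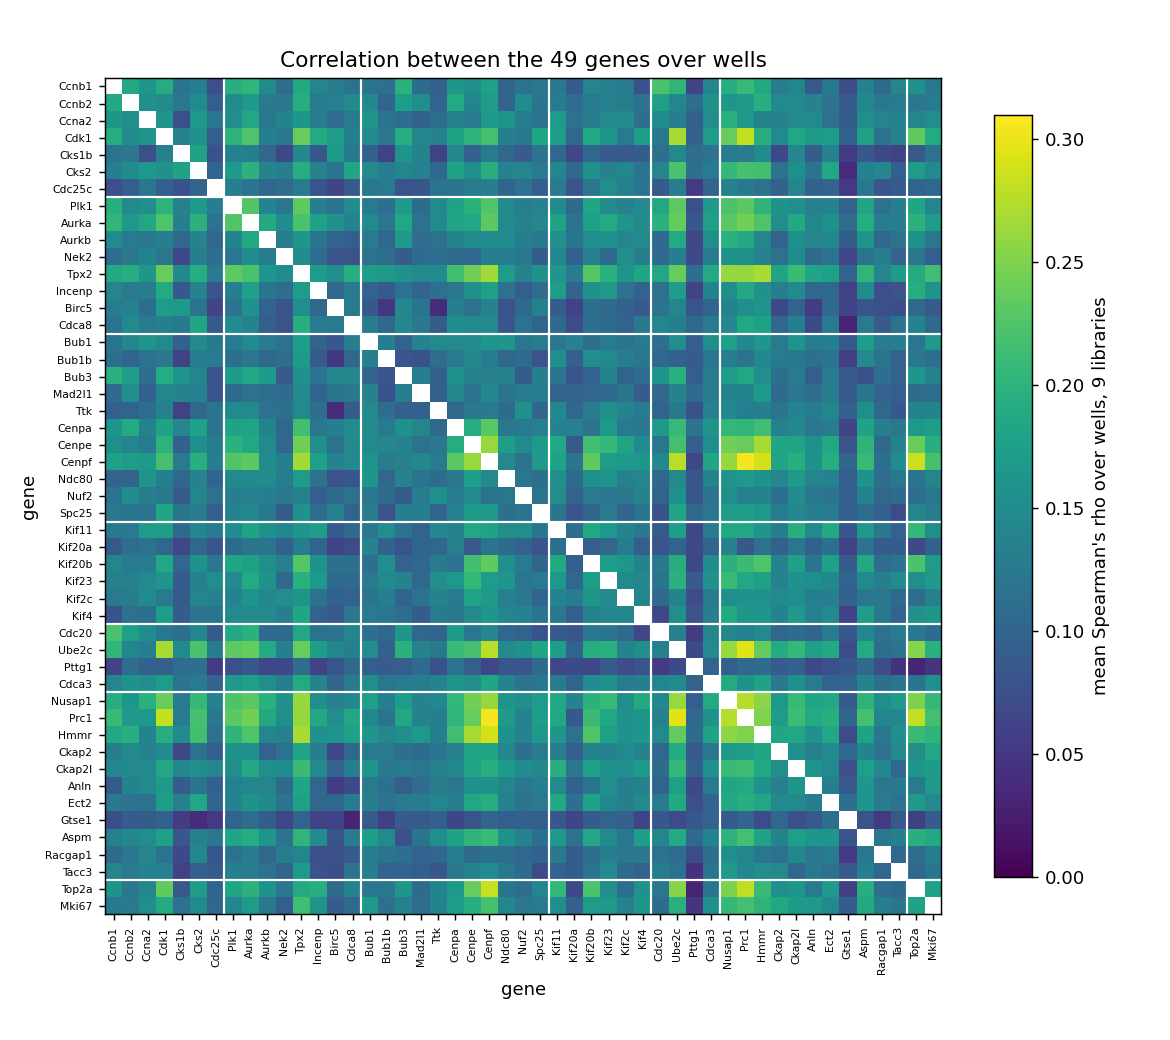
Spearman correlation of CPM over wells between each pair of the 49 genes, as the mean over 9 libraries (colour, 0 to 0.31), with genes in the same order by role on both axes and white lines between roles. Among the bright rows are Prc1, Tpx2, Nusap1, Cenpf, Hmmr and Ube2c, and the darkest are Gtse1 and Pttg1.

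In thinned wells the summed UMIs of the 49 genes had a mean correlation of 0.335 with those of the other mitotic genes (0.243 to 0.385 over 9 libraries) and of 0.032 with those of the S phase genes (-0.103 to 0.120). With G1 genes it was 0.022 and with APC/C subunits 0.039. The share of UMIs from the 49 genes correlated at 0.139 with the UMIs of a well and at -0.116 with its mitochondrial share, whose part in the pattern was not tested.

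Among all genes outside the 49, the gene whose pattern over wells was most like the summed level of the 49 was Arl6ip1, which shapes the endoplasmic reticulum, at 0.409, against a median of 0.051 and a 99th percentile of 0.146 over 5510 genes averaging 20 CPM or more. Among the others at the top were Gm10184 (0.355), Gm15452 (0.289), Hmgb2 (0.278), a chromatin protein, and Calm2 (0.271), a calmodulin. Below these stood Ccnb1-ps (0.260), Cdca2 (0.256), Smc4 (0.252), a condensin subunit, and Jpt1 (0.251), of which Cdca2 and Smc4 are on the list of other mitotic genes. Of the genes named, Gm15452 and Ccnb1-ps are the pseudogenes of Cks2 and Ccnb1 described above. Their values do not separate a pseudogene from its parent gene. Gm10184 is annotated as protein coding and is 99.9% identical to Kpna2 over 1968 bases, so its value is not separated from that of Kpna2. Gm10184 held 152528 UMIs and Kpna2, an importin on the list of other mitotic genes, held 4384.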

How the data were processed

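Plates 1, 2 and 3 of single mouse embryonic stem cells were analysed. The deposited tables hold the raw UMI counts of each gene in each well, with no normalisation, and the type of each well comes from the deposited plate reports. The tools named are featureCounts, Subread 1.4.6-p1, STAR 2.5.2b and the build mm10, per the submitters' processing notes, without their order. Well totals equalled those of the reports in all 1613, 1580 and 1447 wells. Spike-in and reporter sequences (0.646 to 0.752% of UMIs) were left out, as were 15 wells of control RNA and 15 without cells except as background. No doublet caller was run. The median kept well had 36355 UMIs.

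Counts of kept wells were summed per plate and type and tested with edgeR 4.0.16 (R 4.3.3): TMM, filterByExpr, quasi-likelihood F test, the plate as a block, Benjamini-Hochberg adjustment, threshold 0.05. Cells were not treated as replicates. The labels put all 3 types on each plate. As a check of this pairing, the Pearson r of deviations from type means ran from 0.126 to 0.210 in 9 same-plate pairs, against -0.125 to -0.007 in 18 pairs of different plates and types. CPM are counts over TMM-scaled library sizes. The fit was tested on simulated data. DESeq2 1.42.0, RLE scaling, no filter, no block, thinned wells, other well filters and each plate left out were the alternatives. Near copies were found with BLAST+ 2.17.0 (at least 90% identity over 200 bases). Gene names and coordinates are from GENCODE M21, which named 28641 of 29267 identifiers.

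The genes and lists were chosen with earlier results of these data known. Values by library are given for the 2 genes of each role with the highest mean and the 3 with the smallest p in each comparison. They are also given for Ccnb1, Cdk1, Plk1, Aurka, Cdc20, Top2a and Mki67. For Cenpa and Ect2 the text gives the deleted and control libraries only. Their means in inhibited cells were 172 and 148 CPM. Genes named only for not overlapping, for a position in a ranking or for a copy were chosen after their values were seen. In each other list the 2 genes with the smallest p are named, and of genes outside the 49 the 10 with the highest correlation over wells; some of these genes are not reported here. The sources used here do not give which transcript end was counted, nor whether strand was used.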

Additional observations from a re-analysis of the deposited data

Results flagged for a closer look

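Counts on pseudogenes that match a transcript of the 49 genes are data outside the comparisons. Each one listed here lies above a floor of 3 UMIs, which does not show that the pseudogene is expressed. Gm15452 held 27349 UMIs and Gm12891 held 2673, beside 63770 for Cks2, and both match 240 of its bases. Ccnb1-ps held 8358 UMIs and Gm12856 held 2706, beside 68775 for Ccnb1. Gm7856, 93.7% identical to Cdc20 over 1512 bases, held 831. Gm15697, 90.6% identical to Kif11 over 1691 bases, held 1279. The transcribed pseudogene 2700099C18Rik, 92.9% identical to Ndc80 over 591 bases, held 4118 beside 20307 for Ndc80. Gm13176, 93.0% identical to Prc1 over 259 bases, held 1194. Whether these UMIs came from the pseudogenes or from their parent genes was not tested.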

How the results depend on the processing

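The number of genes called depended strongly on the method, and the causes were not tested. Against 6 genes for deletion against control, 1 for inhibition against control and 53 for inhibition against deletion, there were 179, 108 and 383 without the filter on low counts, 446, 334 and 805 with DESeq2, 69, 75 and 170 with thinned wells, and 0, 0 and 3 without the plate block (no paired term). Those 0 counts are from edgeR, with 595 and 440 genes above and below 0 at an unadjusted p under 0.05 for deletion and 355 and 496 for inhibition. Without the deepest 5% of wells, inhibition against deletion gave 31. Leaving out plate 1, 2 or 3 gave 5, 1 and 3 genes for deletion, 0 in each case for inhibition, and 5, 0 and 73 genes for inhibition against deletion.

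Of the 49 genes, 1 was called between inhibition and deletion in the reported fit, 4 with DESeq2, 2 with thinned wells, and 0 without the plate block, without the deepest 5% of wells, with at least 2000 genes per well and with any plate left out. DESeq2 added Birc5 (adjusted p = 0.0157) and Mad2l1 (0.0235), and thinned wells added Mad2l1 (0.0474). The median difference of the 49 genes in that comparison, 0.110, was 0.071 with thinned wells and 0.055 without the deepest wells, and 0.095 to 0.127 with a plate left out. That of deletion against control stayed between -0.102 and -0.037, and that of inhibition against control between 0.018 and 0.060, over the alternatives run. The mean share of UMIs was 0.816% in inhibited, 0.776% in deleted and 0.824% in control cells as the median over wells, and 0.869, 0.821 and 0.848% in inhibited, deleted and control cells with thinned wells. Deleted cells were the lowest of each plate by both measures. The mean correlation between the genes was 0.0472 with thinned wells and 0.130 to 0.143 with a plate left out. Over the 22 genes given by library, 717 values under the alternatives kept their side of the threshold, 6 lost it (all Cks1b) and 3 gained it. Only Cks1b had passed in the reported fit, so no other gene could lose it. A value that changed sign without passing counts as kept, and signs did change. Over 11 alternatives, Aurka changed sign in 5 and Bub3 in 4 between deleted and control cells. Between inhibited and deleted cells Ube2c changed in 4, Cdc20 and Cenpf in 3 each, and Cks1b, Birc5 and Mad2l1 in 0. With 3 plates per type, the standard errors given beside each difference limit what can be called.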

Other observations

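The genes most opposed to the summed level of the 49 over wells, among genes that averaged 20 CPM or more, were Krt18 (-0.178 as the mean Spearman correlation over 9 libraries), mt-Rnr2 (-0.139), Hist1h2ap (-0.126) and mt-Co1 (-0.113). Krt18, a keratin of trophectoderm and other epithelia, ranged from -0.298 to -0.087 over the 9 libraries, and was lower in inhibited than in deleted cells, as was Krt8. Hist1h2ap encodes a replication-dependent histone H2A. These genes were chosen after their values were seen. In wells thinned to equal depth the correlations were -0.161 for Krt18, -0.127 for mt-Rnr2, -0.132 for Hist1h2ap and -0.115 for mt-Co1.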
